A study of Mus musculus with 6 samples.

Results

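The cytosolic ribosomal protein genes were followed across 6 libraries of chromatin immunoprecipitation sequencing (ChIP-seq), which counts DNA fragments pulled down with an antibody. The members were all genes of the deposited table whose symbol starts with Rpl or Rps and a digit, leaving out the ribosomal S6 kinases, which were 89 of 24012 genes. Of these, 43 encode proteins of the large ribosomal subunit and 30 of the small one, and these 73 are called core genes here. The other 16 were 9 copies or -like genes, 6 symbols of pseudogenes and Rps19bp1, whose product binds a ribosomal protein but is not one. Rpsa, Rplp0, Rplp1, Rplp2 and Fau also encode ribosomal proteins but have other names, and they are given with the related lists.

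The cells were primary mouse bone marrow hematopoietic progenitors transduced with a retrovirus that expresses the leukemia fusion MLL-AF9, as the mutant D546R, the mutant D544R or WT. All 3 groups thus carried a fusion, and no group without one was compared. The antibodies were against di- and trimethylated lysine 79 of histone H3 (H3K79me2, Abcam ab3594, and H3K79me3, Diagenode). Each fusion gave 1 library per mark, so there were no replicates and no test between groups was possible. Every interval printed below covers counting error only, not the variation between cultures, and every difference is one between 2 libraries. Per the file headers, the counted region of a gene ran from its transcription start less 2 kb to its transcript end, in mm9.

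Cytosolic ribosomes are built from ribosomal RNA and ribosomal proteins that are needed in near equal amounts, so their genes are transcribed at high levels in nearly every dividing cell. Methylation of H3K79 is laid down by DOT1L, which works with proteins of the elongation machinery, and it marks the transcribed part of active genes. AF9 binds DOT1L, and fusion of MLL to AF9 brings the enzyme to genes that keep progenitors immature. In bone marrow, loss of 1 working copy of several ribosomal protein genes is known to cause Diamond-Blackfan anemia, a failure of red cell formation in people.

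Totals were 3558329 to 5993741 counts in the H3K79me2 libraries and 5207395 to 6652571 in H3K79me3. The share of short regions with no count corresponded to 4.63, 3.15 and 3.92 reads per independent fragment in D546R, D544R and WT in H3K79me2, and to 18.4, 8.03 and 9.58 in H3K79me3. The D546R H3K79me3 library therefore stood apart, with the fewest independent fragments behind its counts. Progenitor markers had a median of 4.83, 5.84 and 5.83 times the genes of like length in H3K79me2 of D546R, D544R and WT cells, and 9, 9 and 10 of 10 exceeded them. Cd34 was near them at 0.953, 0.948 and 1.00. The medians of erythroid, lymphoid and stromal or vessel markers were between 0.611 and 0.924 in all 3 H3K79me2 libraries. Mast cell and basophil markers had 1.83, 1.45 and 1.44 times the reference in H3K79me2 of D546R, D544R and WT cells, with 4, 3 and 4 of 4 above it.

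The counted regions of the members were short, with a median of 4.86 kb and a range of 2.43 to 13.8 kb, against a median of 15.9 kb over all genes. They lay on 19 chromosomes, with 14 on chromosome 7. Each member's counts per kb were therefore divided by the median counts per kb of the non-member genes whose regions were within 10% of its length, which were 210 to 1850 genes. This ratio is made inside 1 library, so it needs no scaling between libraries. Genes of like length include many silent genes, so a value above 1 is not a measure against active genes alone.

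H3K79me2 counts were high over nearly all ribosomal protein genes and under all 3 fusions. The median member had 6.46 times the counts per kb of genes of like length in D546R cells, 5.81 times in D544R cells and 5.79 times in WT cells. Of 89 members, 84 (94.4%) lay above that reference in D546R cells, as did 86 (96.6%) in D544R and 86 in WT cells. All 73 core genes lay above it in each of the 3 H3K79me2 libraries, and the few members at or below it were copies and pseudogene symbols. The large-subunit genes had medians of 6.45, 5.96 and 5.79 in D546R, D544R and WT cells, and the small-subunit genes had 7.68, 6.44 and 6.43.

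**Figure D1:**
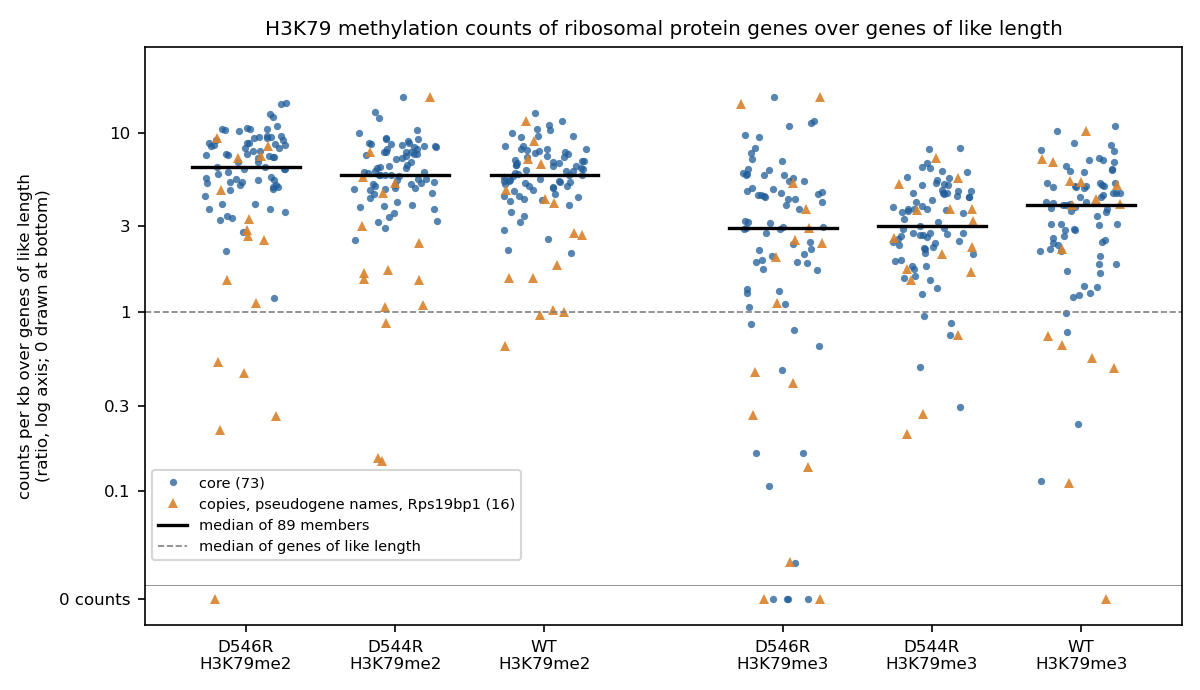
Counts per kb of each of the 89 members divided by the median of genes of like length (vertical, log axis, 0 counts drawn at the bottom) in the 6 libraries; black lines are medians over all members. In H3K79me2 the core genes all lie above 1, with medians over members of 6.46, 5.81 and 5.79, while in H3K79me3 of D546R cells 4 core genes and 2 others have no counts.

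In H3K79me3 the same genes stood less far above their reference. The median member had 2.95 times the counts per kb of genes of like length in D546R cells, 3.00 times in D544R cells and 3.95 times in WT cells. Of 89 members, 70 (78.7%) lay above the reference in D546R cells, 81 (91.0%) in D544R cells and 79 (88.8%) in WT cells. Members took 0.108%, 0.102% and 0.111% of the H3K79me3 counts of D546R, D544R and WT cells, and 0.161%, 0.180% and 0.167% of the H3K79me2 counts. They take up 0.0447% of the summed length of all regions.

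Setting the marks side by side within a fusion, the median ratio over genes of like length was 0.457 times as high in H3K79me3 as in H3K79me2 in D546R cells, 0.516 times in D544R and 0.682 times in WT cells. The H3K79me2 value was the higher one for 67 of 73 core genes in D546R cells, for 68 in D544R cells and for 65 in WT cells. The antibodies differ, so these ratios compare each mark with its own reference and are not amounts of the 2 marks. Core genes also differed more among themselves in H3K79me3, where the SD of the log2 ratio over like-length genes, taken over core genes with a count, was 1.59 in D546R cells, 0.89 in D544R cells and 1.10 in WT cells. In H3K79me2 it was 0.64, 0.52 and 0.53 in D546R, D544R and WT cells. Reads per fragment were also higher in H3K79me3, at 18.4, 8.03 and 9.58 in D546R, D544R and WT cells, against 4.63, 3.15 and 3.92. How much of the spread comes from the small number of fragments was not tested.

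**Figure D2:**
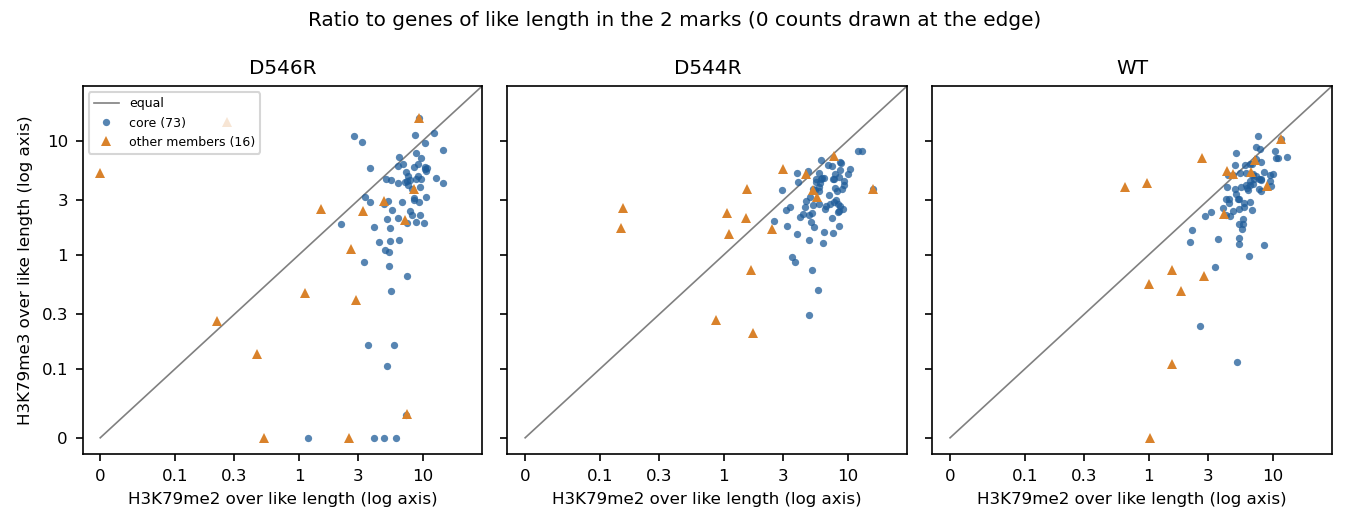
Ratio over genes of like length in H3K79me3 (vertical, log axis) against that in H3K79me2 (horizontal, log axis) for the 89 members in D546R, D544R and WT cells; the line marks equal values and 0 counts are drawn at the edge. Most core genes (67, 68 and 65 of 73) lie below the line, and the vertical scatter is widest in D546R cells.

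The core genes kept a similar order of H3K79me2 levels under the 3 fusions. Over 73 core genes, Spearman's rho of counts per kb over like-length genes between H3K79me2 libraries was 0.66 for D546R and WT, 0.80 for D544R and WT, and 0.59 for D546R and D544R. In H3K79me3 it was 0.22 for D546R and WT, 0.60 for D544R and WT, and 0.18 for D546R and D544R. Genes of 1 library share its depth and fragment number and are not replicates, so these are descriptions. Among the H3K79me3 libraries, that of D546R cells had the order least like the others. With H3K79me2 of D546R, D544R and WT cells its rho was 0.50, 0.48 and 0.54. These values were 0.39, 0.45 and 0.47 for D544R H3K79me3, and 0.46, 0.52 and 0.62 for WT H3K79me3.

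Rpl30, which encodes a large-subunit protein, was the core gene with the most H3K79me2 for its length in D546R and WT cells. Its region on chromosome 15 (NM_009083, mm9 34368262 to 34372980) had 133 counts in D546R, 167 in D544R and 218 in WT cells. Per kb this was 14.6, 13.0 and 12.9 times the genes of like length in D546R, D544R and WT cells. In H3K79me3 it had 170, 127 and 133 counts, or 8.20, 8.18 and 7.21 times the reference, in D546R, D544R and WT cells, so that it was high in all 6 libraries.

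Rps27, a small-subunit gene with a zinc finger protein product, had 9.30, 15.8 and 11.6 times the reference in H3K79me2 of D546R, D544R and WT cells. In H3K79me3 the values were 15.8, 3.73 and 10.3. The table also lists Rps27rt, a retrotransposed copy, with the same counts and nearly the same region of chromosome 3 as Rps27, while RefSeq places Rps27rt on chromosome 9 of GRCm38.p6. Its row therefore repeats Rps27 and gives no value for a copy of its own. Likewise Rpl34-ps1 lies within the region of Rpl34 and has the same counts.

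Rpl4, Rpl7a and Rpl37, all of the large subunit, followed, with 10.5, 10.4 and 11.0 times the reference in H3K79me2 of WT cells. In D546R cells they had 10.3, 8.60 and 8.20 times, and in D544R cells 10.4, 12.1 and 9.98 times. Rps15a, the core gene with the longest region (13.8 kb), had the most raw counts of all members in each H3K79me2 library, with 310 in D546R, 399 in D544R and 451 in WT cells. Per kb it was 9.62, 9.23 and 7.71 times its reference in D546R, D544R and WT cells. The lowest core genes in H3K79me2 were Rps21 in D546R cells at 1.19, Rps4x in D544R cells at 2.52 and Rpl10 in WT cells at 2.13.

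**Figure D3:**
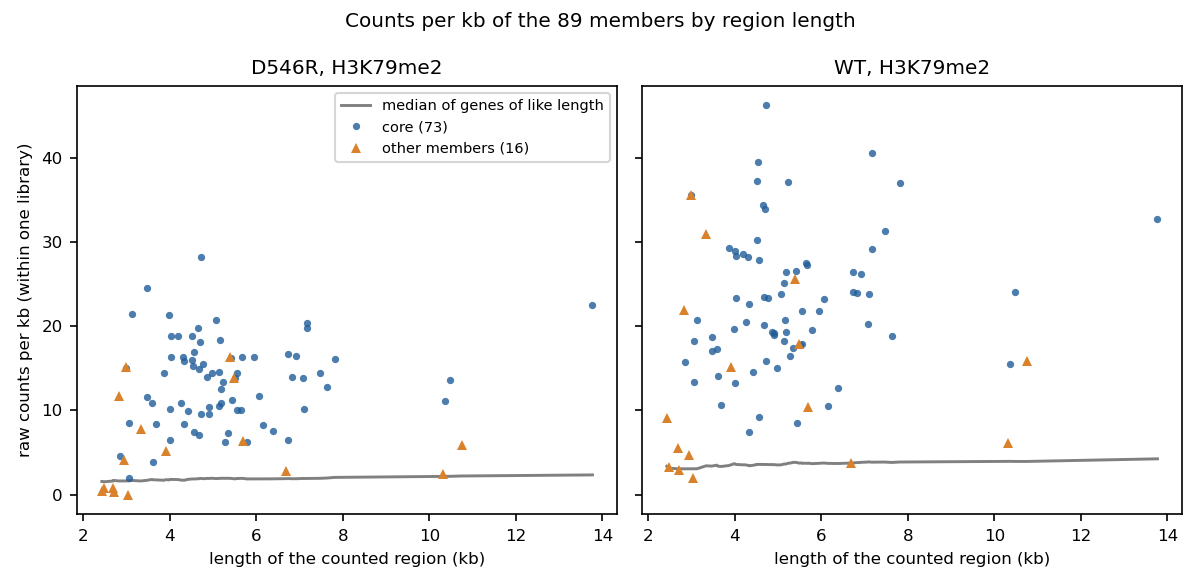
Raw H3K79me2 counts per kb (vertical, linear) against the length of the counted region in kb (horizontal) for the 89 members in D546R and WT cells; the grey line is the median of genes of like length. Rpl30 is the highest core gene in both libraries, and the points near or under the line are copies and pseudogene symbols apart from Rps21 in D546R cells; raw counts are not scaled between the libraries.

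Promoter sequences of the members were compared with those of all genes. RefSeq promoters of GRCm38.p6, 250 bases before to 50 after the start, were found for 64 of 89 members and 54 of 73 core genes. The core of the ETS family site bound by GABP, CCGGAAG on either strand, was in 38.9% of the 54 core promoters in 9.12% of all 27025 promoters of the same length and in 11.7% of the 16656 promoters of other genes in the count table. The pyrimidine run CTCTTTC on the gene's own strand, of the kind found at starts of terminal oligopyrimidine (TOP) genes, was in 22.2% of core promoters, 3.91% of all and 3.78% of those of other counted genes. It was sought anywhere in the promoter, so these are not shares of genes with the run at their start. The YY1 core AAGATGG on either strand was in 14.8%, 6.48% and 6.53%. The Sp1 GC box GGGCGG on either strand was in 57.4% of core promoters, 35.9% of all and 47.1% of those of other counted genes, so its contrast was smaller against the counted genes. The TATA box TATAAA on either strand was in 7.41% of core promoters, 14.2% of all and 12.9% of those of other counted genes. No matches of different motifs overlapped in the core promoters, and a match is a description of the letters, not evidence of binding. Core genes with and without CCGGAAG had a median of 5.95 and 6.53 times their reference in H3K79me2 of WT cells. With and without a match the medians were 5.97 and 6.16 for the pyrimidine run, 5.95 and 6.12 for the GC box, and 5.33 and 6.16 for the TATA box. For the YY1 core they ran the other way, at 7.53 for the 8 genes with a match and 5.77 for the 46 without.

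The stretches are 100 bases of the coding strand, 85 before the RefSeq start and 15 from it on, with motif matches in capitals. The first 3 are core genes with high H3K79me2 per kb and a match, then come Rps18 and Rpl6, which were past the rule of size described further on as lower in D546R against WT cells, in H3K79me3 and in H3K79me2, and last Rpl10l and Rpl39l, copies whose H3K79me2 counts were near or below the reference. In GRCm38.p6 these are Rps27 chr3:90213634-90213733 (minus strand), Rpl37 chr15:5116528-5116627 (plus), Rps15a chr7:118116133-118116232 (minus), Rps18 chr17:33955651-33955750 (minus), Rpl6 chr5:121204416-121204515 (plus), Rpl10l chr12:66284387-66284486 (minus) and Rpl39l chr16:10170143-10170242 (plus).
Rps27: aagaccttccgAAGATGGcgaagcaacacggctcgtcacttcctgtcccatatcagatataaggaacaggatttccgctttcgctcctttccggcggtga
Rpl37: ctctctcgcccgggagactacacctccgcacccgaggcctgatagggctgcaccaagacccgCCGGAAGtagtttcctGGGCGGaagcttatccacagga
Rps15a: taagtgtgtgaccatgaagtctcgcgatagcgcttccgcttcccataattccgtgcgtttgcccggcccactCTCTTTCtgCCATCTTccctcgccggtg
Rps18: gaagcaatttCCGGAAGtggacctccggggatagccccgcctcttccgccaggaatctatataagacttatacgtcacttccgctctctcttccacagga
Rpl6: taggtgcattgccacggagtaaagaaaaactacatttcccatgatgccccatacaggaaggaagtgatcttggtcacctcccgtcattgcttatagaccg
Rpl10l: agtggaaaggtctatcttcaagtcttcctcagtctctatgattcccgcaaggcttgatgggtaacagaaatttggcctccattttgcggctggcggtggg
Rpl39l: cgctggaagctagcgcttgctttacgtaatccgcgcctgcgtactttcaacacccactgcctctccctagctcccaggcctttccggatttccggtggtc
Rps27 carries the YY1 core, Rpl37 the ETS core and the GC box, Rps15a the pyrimidine run and the YY1 core on the other strand, and Rps18 the ETS core. Rpl6 and both copies hold none of the 5 motifs in these 100 bases. The first 3 genes were picked for a match, so the set does not relate motifs to H3K79me2. Rpl4, Rpl7a and Rps3, with 40.6, 37.3 and 37.0 H3K79me2 counts per kb in WT cells, hold none of the motifs in such a stretch.

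The counted region did not start at the promoter for every gene. For genes of the same length in both builds, the shift between mm9 and RefSeq starts was compared with that of the nearest plus-strand gene. The shifts matched within 2 bp for 97.1% of 3748 plus-strand genes and 96.2% of 3762 minus-strand genes, and were 2 kb apart for 0. This shows only that the 2 kb extension lay at the same end for both strands. That it was the low-coordinate end rests on the headers, which give the region's start as the transcription start less 2 kb. For minus-strand genes the counts therefore cover 2 kb past the transcript end and none before the start. The 22 core genes known to be on the minus strand had a median of 7.89, 6.81 and 6.43 times their reference in H3K79me2 of D546R, D544R and WT cells, against 6.14, 6.05 and 5.69 for the 32 on the plus strand. Shared counts were common, since 46 of 73 core regions overlapped another region and 19 of them one of a small nucleolar RNA, a class often encoded in introns of ribosomal protein genes. The 27 core genes that overlapped no other region had medians of 6.04, 5.96 and 5.37 in H3K79me2 of D546R, D544R and WT cells.

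The 4 core genes on the X chromosome (Rpl10, Rpl36a, Rpl39 and Rps4x) had fewer H3K79me2 counts than the 69 on autosomes. Their median was 9.16, 12.9 and 11.5 counts per kb in D546R, D544R and WT cells, against 14.0, 17.5 and 23.3 for the autosomal core genes. Other X-linked genes of such lengths had 1.04, 1.30 and 1.68 counts per kb in D546R, D544R and WT cells, and other autosomal ones 1.99, 2.82 and 3.80, so X-linked genes were lower as a class. The sources used here do not state the sex of the animals, on which the number of X chromosomes depends.

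The copies and -like genes stood at different levels. Rpl3l, a copy used in heart and skeletal muscle, had 1.12, 1.10 and 1.55 times its reference in H3K79me2 of D546R, D544R and WT cells, against 6.46, 3.94 and 4.94 for Rpl3. Rpl10l, a testis copy of the X-linked Rpl10, had 0, 1 and 6 H3K79me2 counts in D546R, D544R and WT cells, against 36, 56 and 32 for Rpl10. The count of 0 allows up to 3 counts. Rpl39l, another copy active in testis, stood at 1.5, 1.06 and 1.00 in D546R, D544R and WT cells, against 3.74, 4.85 and 5.63 for Rpl39. The tissue-restricted copies thus lay below the genes they are named after in all 3 H3K79me2 libraries.

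Rpl22l1, Rpl7l1, Rpl36al and Rps27l, copies or relatives that are expressed more widely, carried H3K79me2 in all 3 libraries. Rpl22l1 had 2.88, 2.44 and 4.28 times its reference in D546R, D544R and WT cells, against 5.12, 3.17 and 3.93 for Rpl22. Rpl36al had 4.81, 7.78 and 9.03, against 5.53, 5.14 and 4.18 for Rpl36a. Rps27l, known as a p53 target, had 8.45, 4.62 and 6.69, against 9.30, 15.8 and 11.6 for Rps27. No single order of copy and named gene held for these pairs. Rps4l had 12, 1 and 14 counts in D546R, D544R and WT cells, too few to rank.

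**Figure D4:**
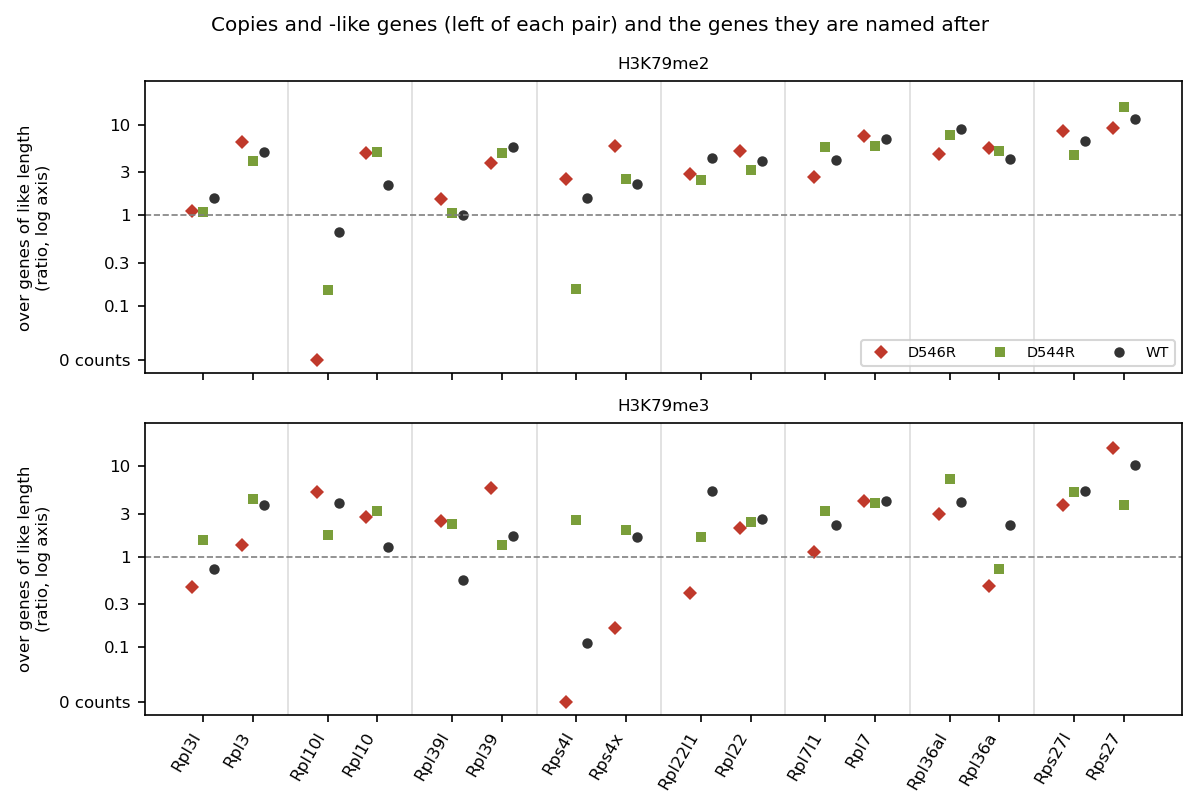
Ratio over genes of like length (vertical, log axis, 0 counts drawn at the bottom) for 8 copies or -like genes, each left of the gene it is named after, in H3K79me2 (upper) and H3K79me3 (lower) of D546R, D544R and WT cells. In H3K79me2 Rpl3l, Rpl10l and Rpl39l lie below Rpl3, Rpl10 and Rpl39 in all 3 libraries; in H3K79me3 this held in all 3 libraries for Rpl3l only.

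In H3K79me3 the testis copies lay above their reference, except Rpl39l in WT cells. Rpl10l had 48, 16 and 37 counts in D546R, D544R and WT cells, or 5.23, 1.73 and 3.96 times its reference, and Rpl10 had 44, 41 and 18 counts, or 2.75, 3.18 and 1.28 times. Rpl39l had 83, 54 and 14 counts, or 2.52, 2.32 and 0.554 times, in D546R, D544R and WT cells, and Rpl39 had 119, 21 and 30 counts, or 5.77, 1.35 and 1.69 times. At 18.4, 8.03 and 9.58 reads per fragment these counts stand for few independent fragments. Where exon reads are shared with a processed copy elsewhere in the genome, the aligner's handling of repeats decides the count, and the sources used here do not state its settings. Values of small copies and pseudogene symbols are uncertain for that reason.

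A list of 9 members whose human counterparts are known from bone marrow failure, Diamond-Blackfan anemia or, for Rps14, a myelodysplastic syndrome (Rps7, Rps10, Rps14, Rps19, Rps24, Rps26, Rpl5, Rpl11 and Rpl35a) lay above the reference in H3K79me2 of each library. Their median was 7.47, 6.53 and 6.12 times the reference in H3K79me2 of D546R, D544R and WT cells, with lowest members at 5.28, 5.26 and 5.24. In H3K79me3 the medians were 4.26, 3.30 and 4.08, with a range of 0.793 to 11.6 in D546R cells, 1.58 to 6.34 in D544R cells and 1.86 to 6.85 in WT cells.

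D546R against WT asked whether a fusion with another residue in its AF9 part leaves a different level of H3K79 methylation. In H3K79me2 the ribosomal protein genes as a group were at nearly the same level. Counts were scaled between the 3 libraries of a mark by median-of-ratios size factors, and the normalised counts of all 89 members summed to 7518 in D546R cells and 7434 in WT cells. The log2 ratio of these sums was 0.02 (counting interval -0.03 to 0.06). Dividing counts by reads per fragment gave the wider fragment interval, -0.08 to 0.11. Over the 83 members whose normalised counts averaged 10 or more the median log2 ratio was 0.06, and over all 20308 such genes it was 0.01.

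A member was past the rule of size under 3 conditions: a difference of 2-fold or more, a counting interval that did not reach 0, and normalised counts that averaged 100 or more. In D546R against WT cells in H3K79me2, 29 members had that mean. As higher 0 were past the rule (0.853% of 8905 genes tested, and 2.83% of 600 others in the members' range of length). As lower 1 member was past it (0.865% and 1.67%). It was Rpl6, a large-subunit gene on chromosome 5 (NM_011290, mm9 121652509 to 121659250), whose region overlaps no other. It had 44 raw counts in D546R, 143 in D544R and 162 in WT cells, which are 57.6, 147 and 120 normalised counts. D546R cells were thus the low library, with a log2 ratio to WT of -1.06 (counting interval -1.58 to -0.57, fragment interval -2.25 to -0.02). With olfactory receptor genes as the scaling reference it stood at -0.94 and was no longer past the rule.

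Among the 29 members with a mean of at least 100, Rpl32 and Rps18 had the next lowest ratios in H3K79me2 of D546R against WT cells, at -0.65 and -0.62, and Rpl9 the highest, at 0.61, all within 2-fold. Rps21, a gene under the mean of 100, had the lowest ratio of the 83 members, with 6, 38 and 56 raw counts in D546R, D544R and WT cells. Its log2 ratio of D546R to WT was -2.33, with a fragment interval of -6.78 to 0.07. Of the 83 members, 4 were at least 2-fold lower (8.22% of 20308 genes were) and 2 at least 2-fold higher (4.51%), with no interval required.

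D544R against WT had the fewest members past 2-fold in H3K79me2, while the ratio of sums lay further from 0 than in the other 2 comparisons of that mark. The sums were 7925 normalised counts in D544R cells and 7434 in WT cells, a log2 ratio of 0.09 (counting interval 0.05 to 0.14, fragment interval 0.01 to 0.17). The median over 83 members was 0.13, against 0.00 over 20308 genes. Of the 29 members with a mean of at least 100, 0 were past the rule as lower (0.0112% of 8905 genes) and 0 as higher (0.0337%). The highest of them was Rps19, the gene first linked to Diamond-Blackfan anemia. It had 98, 179 and 144 raw counts in D546R, D544R and WT cells, or 128, 184 and 107 normalised. D544R cells were the high library, at a log2 ratio to WT of 0.78 (fragment interval 0.16 to 1.42), below 2-fold. Rps24 was the lowest of the 29 at -0.34 (fragment interval -0.95 to 0.25).

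D546R against D544R compared the 2 mutants directly, with the same D546R library as above. In H3K79me2 the sums were 7518 in D546R cells and 7925 in D544R cells, a log2 ratio of -0.08 (fragment interval -0.18 to 0.02). Past the rule were 2 of 29 members as lower (0.876% of 8905 genes) and 0 as higher (0.752%). Of 600 other genes in the members' range of length, 1.5% were lower and 3% higher. Rpl6 had a log2 ratio of -1.34 (fragment interval -2.54 to -0.32). Rpl7l1, a relative of Rpl7, had 63, 179 and 171 raw counts in D546R, D544R and WT cells, or 82.5, 184 and 127 normalised. Its region overlaps that of 2310039H08Rik. Its log2 ratio was -1.15 in D546R against D544R (fragment interval -2.13 to -0.29) and -0.62 in D546R against WT, short of 2-fold. Rpl22 was the highest of the 29 in D546R against D544R at 0.58.

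**Figure D5:**
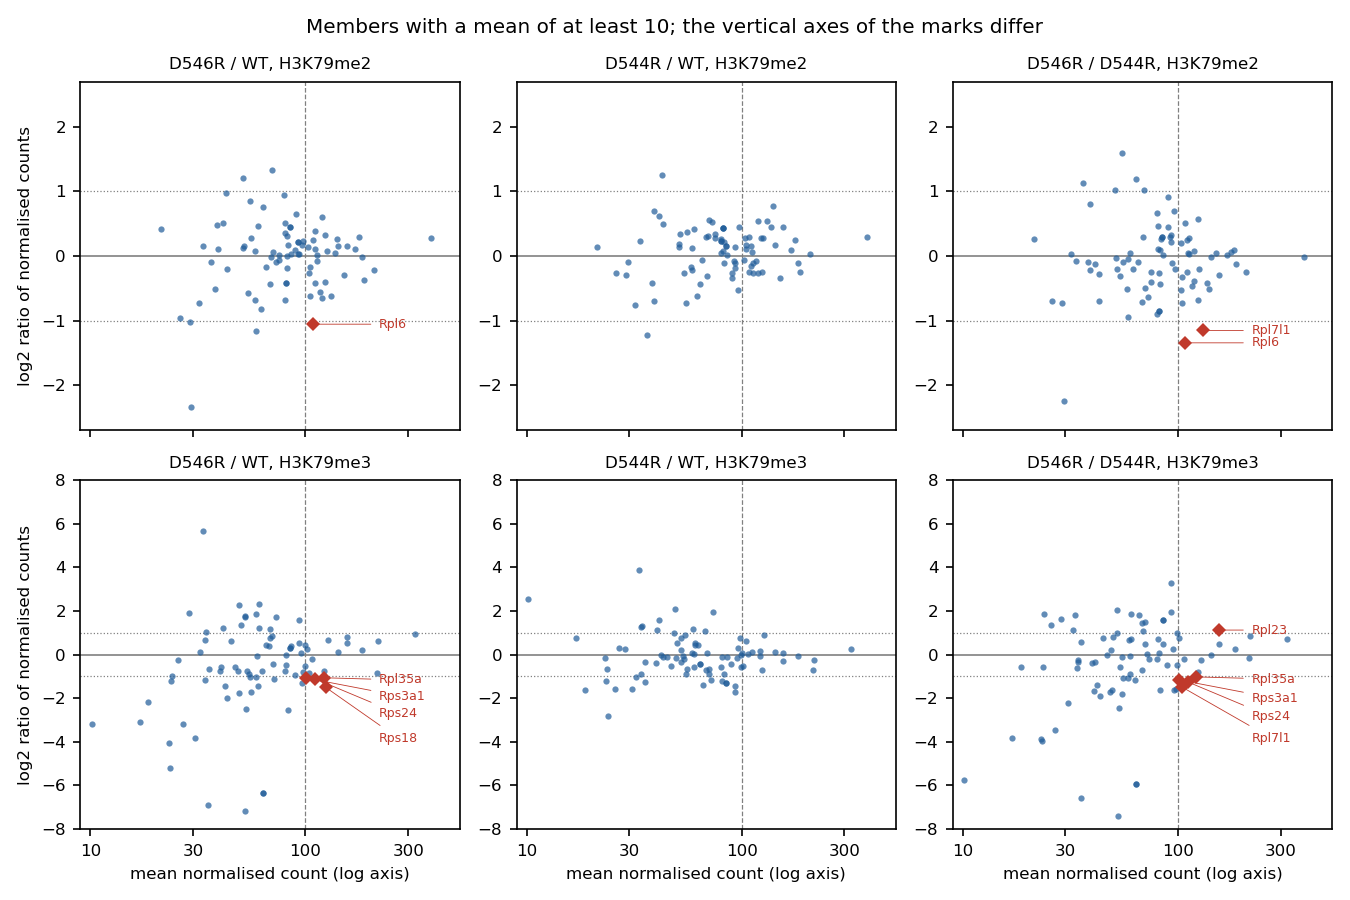
Log2 ratio of normalised counts (vertical) against the mean normalised count over the 3 libraries of the mark (horizontal, log axis) for members with a mean of at least 10, in the 3 comparisons of H3K79me2 (upper) and H3K79me3 (lower); dotted lines mark 2-fold, the dashed line a mean of 100, and red diamonds the members past the rule. The vertical axes differ between the marks, since D546R against WT spans -2.33 to 1.33 in the H3K79me2 panel and -7.19 to 5.67 in the H3K79me3 panel.

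In H3K79me3 the summed counts of the group again differed little, while single genes scattered widely in comparisons with D546R. The sums were 6147 normalised counts in D546R, 6107 in D544R and 6630 in WT cells. The log2 ratio was -0.11 for D546R against WT (fragment interval -0.29 to 0.07), -0.12 for D544R against WT (-0.28 to 0.04) and 0.01 for D546R against D544R (-0.17 to 0.19). The median over the 85 members that averaged 10 or more was -0.55, -0.12 and -0.22 in these comparisons, against 0.00, -0.01 and -0.04 over 21777 genes. In D546R against WT the median thus lay further below 0 than the ratio of sums. Over the 16 members with a mean of at least 100 the medians were -0.05, 0.04 and -0.18, so the first was close to 0 and the second was on the other side of it. The SD over 72 core genes was 2.02 for D546R against WT and 1.98 against D544R, compared with 1.00 for D544R against WT. Over 8176 other genes in the members' range of length that averaged 10 or more it was 2.76, 2.66 and 1.84. Those genes were not matched to the members on counts.

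In D546R against WT cells in H3K79me3, 4 of the 16 members with a mean of at least 100 were past the rule as lower (8.91% of 10824 genes tested were, and 21.5% of 475 other genes in the members' range of length). As higher there were 0 (6.95% of 10824, and 9.89% of the 475). With the fragment interval in place of the counting interval 0 members remained past it in either direction (5.62% and 4.31% of all genes did). All 4 are thus calls at the level of reads only.

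Rps18, a small-subunit gene on chromosome 17 (NM_011296, mm9 34086943 to 34092586), had 66.7, 116 and 189 normalised counts in H3K79me3 of D546R, D544R and WT cells. D546R cells were lowest, at a log2 ratio to WT of -1.5 (counting interval -1.91 to -1.12, fragment interval -3.45 to 0.05). Its region overlaps those of B3galt4 and Vps52, whose reads it can share. Rps24 had 59.9, 143 and 130 normalised counts, Rps3a1 had 56.5, 126 and 119, and Rpl35a had 71.0, 145 and 149 in D546R, D544R and WT cells. These 3 genes were low in D546R cells and alike in D544R and WT cells, with log2 ratios to WT of -1.12, -1.07 and -1.06 and fragment intervals reaching 0.59, 0.70 and 0.52. In H3K79me2 the same genes had ratios of -0.30, 0.15 and 0.08 for D546R against WT.

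On the other side, Rps15a, the gene with the most counts, had 454, 277 and 234 normalised H3K79me3 counts in D546R, D544R and WT cells. Its log2 ratio of D546R to WT was 0.95 (fragment interval 0.12 to 1.80), just short of 2-fold. Rpl23 had 231, 106 and 131 and stood at 0.81 against WT (fragment interval -0.36 to 2.00). Rpl4 had 294, 163 and 191 and stood at 0.62. These large counts in D546R cells offset the low ones in the sum.

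Below a mean of 100 the scatter was widest. In H3K79me3 of D546R against WT cells, a drop of 2-fold or more was found for 28 of the 85 members that averaged 10 or more (18.8% of 21777 genes), and a rise of that size for 14 (18.1%), with no interval required. The 28 include the 4 past the rule and the row that repeats Rpl34. With each region counted once, 67 members had a mean between 10 and 100, of which 23 were at least 2-fold lower (28.5% of 10953 genes in that range) and 14 at least 2-fold higher (29.1%). Rpl34 had 1, 71 and 107 raw counts in D546R, D544R and WT cells, and the upper end of its fragment interval of D546R to WT was -0.61. Rpl28 had 0, 74 and 71 raw counts, and Rps21 had 0, 41 and 58 in D546R, D544R and WT cells. In the other direction, Rpl36 had 90, 19 and 1 and the S6 protein gene Rps6, whose product is phosphorylated on growth signals, 228, 17 and 63. Each count of 0 allows up to 3 reads, but by an upper estimate 1 fragment stands for about 18.4 reads in this library. In H3K79me2 Rpl34, Rpl28 and Rpl36 had 76, 39 and 13 raw counts in D546R cells, 79, 57 and 27 in D544R cells and 98, 62 and 45 in WT cells.

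D544R against WT in H3K79me3 had 0 of 16 members past the rule as lower (3.02% of 10824 genes) and 0 as higher (4.34%). Of 475 other genes in the members' range of length, 10.3% were lower and 6.11% higher. Among the 16 members, Rps18 was lowest at -0.71 (fragment interval -1.86 to 0.39) and Rps19 highest at 0.92 (-0.33 to 2.29). Rps19 had 137, 161 and 84.5 normalised counts in D546R, D544R and WT cells and was the highest of the members with a mean of at least 100 in this comparison in both marks. Over all 85 members 14 were at least 2-fold lower (13.6% of 21777 genes) and 10 at least 2-fold higher (14.1%), with no interval required.

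D546R against D544R in H3K79me3 had 4 of 16 members past the rule as lower (8.30% of 10824 genes) and 1 as higher (5.78%). Of 475 other genes in the members' range of length, 14.7% were lower and 12.2% higher. The 4 lower members were Rpl7l1 at a log2 ratio of -1.48, Rps24 at -1.25, Rps3a1 at -1.15 and Rpl35a at -1.02. The higher one was Rpl23 at 1.13. With the fragment interval 0 were past it in either direction (5.21% and 3.81%). Rpl7l1 had 55.6, 156 and 101 normalised H3K79me3 counts in D546R, D544R and WT cells, and it was low in D546R against D544R in both marks.

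Related genes outside the name rule had levels in the same range. A list of 5 ribosomal protein genes with other names had a median of 6.30, 5.41 and 5.92 times the genes of like length in H3K79me2 of D546R, D544R and WT cells, and 5 of 5 lay above their reference in each. Their normalised counts averaged at most 92.3 in H3K79me2 and 73.3 in H3K79me3, so none of the 5 reached the mean of 100 that the rule of size needs. Against WT in H3K79me2 their median log2 ratio was 0.32 in D546R and 0.17 in D544R. Fau, which encodes a ubiquitin-like protein fused to a small-subunit protein, was highest in D546R against WT at 0.86, and Rplp0, a stalk protein gene, lowest at -0.75. In H3K79me3 the medians against WT were -0.29 in D546R and 0.21 in D544R.

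The 17 translation factor and other genes of the TOP class had a median of 7.26, 5.59 and 5.85 times the genes of like length in H3K79me2 of D546R, D544R and WT cells, with 17 of 17 above it in each. Of the 15 with a mean of at least 100 in H3K79me2, 0 were past the rule against WT in either mutant (0.865% of 8905 genes were lower and 0.853% higher in D546R, 0.0112% and 0.0337% in D544R), and median log2 ratios were -0.02 in D546R and -0.03 in D544R. In H3K79me3 13 of the 17 had that mean. Of these, 2 were past the rule as lower in D546R against WT cells, Nap1l1 at -1.32 and Pabpc1 at -1.34 (8.91% of 10824 genes were), and 1 as higher, Eef1g at 1.80 (6.95%). In D544R against WT cells 1 was past it as lower, Btf3 at -1.02 (3.02%), and 2 as higher, Gnb2l1 at 1.18 and Eef1g at 1.83 (4.34%). Hnrnpa1 had the most H3K79me2 for its length, at 17.6, 15.7 and 16.9 times the reference in D546R, D544R and WT cells.

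Most markers of mature myeloid cells had more H3K79me2 in D546R cells than in D544R or WT cells. In H3K79me2 their median was 2.56, 1.59 and 1.32 times the genes of like length in D546R, D544R and WT cells, and 8 of 8 had a log2 ratio of D546R to WT above 0 (50.5% of 20308 genes did), with a median of 0.80. Of the 3 with a mean of at least 100, 2 were past the rule as higher, Chil3 at 1.96 and Ltf at 1.26 (0.853% of 8905 genes were). In D544R against WT cells 6 of 8 were above 0 (50.0% of 20308 genes), with a median of 0.13 and 0 past the rule. Their summed normalised H3K79me2 counts were 1397, 771 and 711 in D546R, D544R and WT cells, and 0 of the 8 were at a count of 0. The largest raw counts were those of Itgam (411, 287 and 502) and Chil3 (348, 213 and 157). Camp, Ngp, S100a8 and S100a9 had 11 to 29 raw counts per H3K79me2 library. In D546R against D544R cells 7 of 8 were above 0 in H3K79me2 (50.6% of 20308 genes), with Camp lower at -0.90. In H3K79me3 6 of the 7 markers with a mean of at least 10 were above 0 in D546R against WT cells (49.7% of 21777 genes), with a median of 0.52. Ngp was below 0, with 0, 22 and 7 raw counts in D546R, D544R and WT cells. Camp, under that mean, had 3, 0 and 7. Of the 4 markers with a mean of at least 100, 1 was past the rule as higher, Chil3 at 1.84 (6.95% of 10824 genes were). Erythroid markers had a median of 1.67, 1.12 and 1.20 times their reference in H3K79me3 of D546R, D544R and WT cells, and stromal or vessel markers 1.75, 0.724 and 0.822. Lymphoid markers had 0.536, 1.12 and 0.580, and mast cell and basophil markers 0.416, 1.13 and 0.549, so these were highest in D544R cells. In D544R against WT 5 of 5 lymphoid markers with a mean of at least 10 were above 0 (49.0% of 21777 genes). Their median was 1.05, with 0 past the rule. In H3K79me3 of D546R against WT 4 of 4 stromal or vessel markers were above 0 (49.7% of 21777 genes), with a median of 0.79. By the counting interval 1, Pecam1 at 1.06, was past the rule as higher (6.95% of 10824 genes were). In H3K79me2 2 of the 4 were above 0, with a median of 0.14. The part of all these markers in the ratios of single ribosomal protein genes was not tested. In bulk chromatin a change in the makeup of the cells and a change within each cell cannot be told apart.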

How the data were processed

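The authors deposited raw read counts per gene for the 6 libraries, with no normalization. Per the file headers the region ran from the transcription start less 2 kb to the transcript end. For minus-strand genes these 2 kb lay past the transcript end, as described above. Chromatin was sheared to about 300 bp and several sequencing runs were pooled per library, per the labels. Bowtie, bedtools, DESeq and mm9 are named in the submitters' processing notes, with no roles or versions. Treatment of duplicate and multiply mapping reads is not given in the sources, and 0 value columns were left unused.

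Members were found by symbol. The members and gene lists were chosen with earlier results of these data known. Size factors were taken as medians of ratios within a mark (23029 genes in H3K79me2, 20863 in H3K79me3), scaled to a geometric mean of 1. Log2 ratios used a prior count of 0.5 and the exact conditional binomial (Clopper-Pearson) 95% interval. Reads per fragment came from the share of 4546 autosomal non-member regions under 5 kb with no count, which treats each as reachable, so it is an upper estimate. PCR reads carry no molecular identifiers, so intervals and floors cover counting error only. Comparisons in which 1 library appears repeatedly are not independent.

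Named genes were fixed copies and disease genes, the 3 densest and 3 least dense members per library, the 3 lowest and highest and all members past the rule per comparison, and the extremes of the pathway list. Genes named outside this rule, such as Rpl34, Rpl28, Rps21 and the X-linked Rpl36a, were picked with their values in view. A few genes of the lists are not reported here. The scripts were tested on simulated data. Alternatives were other scalings (total counts, edgeR 4.0.16 TMM, all 6 libraries, olfactory receptor genes), filters, folds, references and subsets of members. Python 3.11.15, numpy 2.4.6, pandas 2.3.3, scipy 1.17.1 and R 4.3.3 were used. RefSeq gene and promoter tables of GRCm38.p6 gave strands and sequences. Their coordinates were set against mm9 ones only to find the side of the 2 kb extension.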

Additional observations from a re-analysis of the deposited data

How the results depend on the processing

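No paired analysis was possible because each group had 1 library and the titles carry no replicate numbers, and no library could be left out of a group. Of the alternative values of the group results, 215 stayed within their interval or 1.5 times, 72 moved by more, and 1 with an interval clear of 0 reversed. For medians and shares that interval was taken over members, which are not replicates, and it served only as a yardstick here. Group ratios near 0 changed sign in 2 of 60 alternative medians and 3 of 42 alternative ratios of sums, that reversal among them. Of 920 alternative values of single named members, all stayed within their counting interval and 10 changed sign, from log2 ratios of at most 0.052 in size. The causes were not tested.

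With the mean of like-length genes as the reference, the median ratio in H3K79me2 was 3.61 in D546R, 3.59 in D544R and 3.63 in WT cells, and in H3K79me3 it was 1.86, 2.10 and 2.60. With olfactory receptor genes it was 7.47, 7.23 and 6.66 in H3K79me2. For members that overlap no other region it was 2.55 in H3K79me3 of D544R cells. The share above the reference was 100% for core genes in H3K79me2 of D546R, D544R and WT cells, and 94.5% in H3K79me3 of WT cells.

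The sum of H3K79me3 counts in D546R against WT reversed, to a log2 ratio of 0.0755, over members that overlap no other region. Over these members it was 0.0805 in H3K79me2, and D546R against D544R stood at -0.0228 in H3K79me2 and 0.16 in H3K79me3. With total counts the ratio of sums changed sign to -0.0492 for D546R against WT and the median to -0.0026, and it was -0.16 for D546R against D544R in H3K79me2, and -0.0411 and 0.0793 in H3K79me3. The median of D544R against WT in H3K79me3 changed sign to 0.04 at a mean of at least 100, and the ratio of sums of D546R against D544R to -0.01 with size factors over all 6 libraries. Leaving out the rows that repeat Rpl34 and Rps27 (chosen after seeing the data) changed no sign and no count past the rule. Core genes alone gave 0.0804 for D546R against D544R in H3K79me3. The olfactory receptor reference moved D546R against WT by 0.12 and D544R against WT by 0.09 in H3K79me2 and D544R against WT by -0.12 in H3K79me3 for every gene. With it the ratio of sums in H3K79me2 was 0.14 for D546R and 0.18 for D544R against WT, with medians of 0.18 and 0.22. In H3K79me3 the ratio of sums was -0.24 for D544R against WT and 0.0821 for D546R against D544R.

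Counts past the rule moved most. In H3K79me2 of D546R against WT they were 2 lower and 2 higher at a mean of at least 30, 5 and 2 with no filter, 4 and 1 at 1.5-fold, and 0 lower at a mean of at least 300 or with the olfactory receptor reference. In D544R against WT members past the rule were 1 and 1 at a mean of at least 30, 2 and 1 with no filter, and 1 higher at 1.5-fold. In D546R against D544R there were 0 lower at a mean of at least 300, 4 lower at 1.5-fold, 1 lower among core members (a choice made after seeing the data), and 5 and 6 higher at a mean of at least 30 and with no filter.

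In H3K79me3 of D546R against WT they were 21 lower and 13 higher at a mean of at least 30, 28 and 14 with no filter, 7 and 4 at 1.5-fold, 2 and 1 with total counts, and 0 lower at a mean of at least 300 or with the fragment interval. In D544R against WT members past the rule were 10 and 9 at a mean of at least 30, 15 and 11 with no filter, and 2 and 2 at 1.5-fold. In D546R against D544R they were 22 and 13 at a mean of at least 30, 28 and 16 with no filter, 0 and 0 at a mean of at least 300 or with the fragment interval, 2 lower with total counts and 4 higher at 1.5-fold.

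The H3K79me3 ratios of single members rest on few reads and fragments, though the totals of these libraries were not low. Of 89 members, 16 had a mean of at least 100 in H3K79me3, against 29 in H3K79me2. By the upper estimate, 18.4 reads stood for 1 fragment in H3K79me3 of D546R cells.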
